A study of Mus musculus with 4 samples.

Results

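Some places bound by Ago2 in overloaded plantaris muscle were tied to a single miRNA. A peak was counted here when its line in the deposited list had exactly 1 miRNA name and at least 2 chimeric reads, and there were 1635 such peaks among 20754 in the control-injected muscle and 1638 among 21872 in the mimic-injected muscle. These were 7.88% (95% exact interval 7.51 to 8.25) of the control peaks and 7.49% (7.14 to 7.85) of the mimic peaks, in all 3273 of 42626. The peaks were thus chosen by the number of names and the reads of the same list, so both are a description and nothing is read from them. The muscles came from male C57BL/6J mice at 5 months of age, 10 days after mechanical overload (MOV), the surgical removal of part of the synergist muscles, which loads the plantaris. During that surgery the left plantaris was injected with a control lentivirus and the right with a lentivirus carrying a miR-1 mimic, each under a mouse CMV promoter with TurboGFP as the reporter, and there was 1 MOV control and 1 MOV mimic library. Both groups were overloaded and virus-injected, and with 1 library per group no difference between them has a replicate check. Input libraries of the same series were not analysed here.

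A miRNA is a short RNA that sits in an Argonaute protein such as Ago2 and guides it to messenger RNAs, mostly through pairing of its seed, bases 2 to 8, with the target. In chimeric eCLIP the miRNA and the RNA under it are ligated while both are held by Ago2, so that a sequenced chimera names the pair. A place can be used by several miRNAs, and miRNAs of 1 family that share a seed can be ligated at the same place under different names. Skeletal muscle is rich in miR-1, miR-133 and miR-206, which are made in muscle cells, and miR-1 and miR-206 have the same seed.

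The 10 miRNAs with the most single-miRNA peaks were miR-466i-5p, miR-133a-3p, miR-1a-3p, miR-206-3p, miR-24-3p, miR-22-3p, miR-26a-5p, miR-214-3p, miR-27a-3p and miR-21a-5p. The sequences of 7 of them, taken from RefSeq (GRCm38), are given below with the seed in capitals, to show which of these miRNAs share a seed. miR-133b-3p, whose peaks were almost never single, is shown beside them.
miR-206-3p: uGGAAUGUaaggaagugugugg
miR-24-3p: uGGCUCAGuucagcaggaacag
miR-22-3p: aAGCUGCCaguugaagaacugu
miR-26a-5p: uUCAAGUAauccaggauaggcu
miR-214-3p: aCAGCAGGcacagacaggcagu
miR-27a-3p: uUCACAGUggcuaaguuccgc
miR-21a-5p: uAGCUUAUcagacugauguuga
miR-133b-3p: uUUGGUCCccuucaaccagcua
Among these 8 sequences each has a seed of its own. No sequence of miR-466i-5p, miR-133a-3p or miR-1a-3p was at hand, so seeds shared with those miRNAs cannot be seen here. This leaves out miR-206-3p beside miR-1a-3p, which have the same seed, and miR-133b-3p beside its relative miR-133a-3p. In the sequence table miR-26a-5p shares its seed with miR-26b-5p, and miR-27a-3p with miR-27b-3p.

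Few reads lay in most single-miRNA peaks. Their median stood at 2.71 reads in control muscle and 2.76 in the mimic, and the quartiles were 2.40 and 3.65 in control muscle and 2.40 and 3.68 in the mimic. At least 6 reads were found in 98 control and 97 mimic peaks, and at least 10 reads in 18 and 21. Values are fractional, and only 30 control and 39 mimic peaks lay within 0.001 of a whole number. Just inside the minimum of 2 reads stood peaks of 2.001, 2.002 and 2.006 reads in control muscle and of 2.003, 2.003 and 2.008 in the mimic. Just outside it were 1.988, 1.992 and 1.995 in control muscle and 1.990, 1.990 and 1.997 in the mimic. A further 516 control and 599 mimic peaks had 1 name and under 2 reads, and they were left out. Together the single-miRNA peaks held 2.37% of the 232408 chimeric reads of the control and 2.16% of the 259207 of the mimic.

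Peaks with more reads rarely kept to 1 miRNA. Of control peaks with 2 to 2.5 reads, 19.6% were single, against 6.61% of those with 4 to 6 reads and 0.586% of those with 10 or more. In the mimic these shares were 18.4%, 6.97% and 0.650%. The median number of names per peak rose over the same classes from 2 to 8 in control muscle and from 2 to 9 in the mimic. The number of names and the number of reads are therefore bound together in these lists, and several comparisons below are therefore also given by class of reads.

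miR-466i-5p was the most frequent miRNA of the single-miRNA peaks in the control. It had 389 peaks there (23.8%, interval 21.7 to 25.9), and 273 in the mimic (16.7%, 14.9 to 18.6), while it made up only 1.28% and 0.947% of all pairs of a peak and a miRNA. Here and below, a peak of several miRNAs counts in as many pairs as it has names. Shares of pairs and shares of peaks are thus of unlike units. By peaks, miR-466i-5p had the most reads in 867 of all 20754 control peaks and 659 of all 21872 mimic peaks. Of the 1194 control peaks that named it, 32.6% were single, and of the 955 mimic peaks 28.6%. Among the 10 miRNAs its share differed most between the libraries, and the counting intervals did not overlap. The intervals cover counting error only, not the variation between animals or library preparations. miR-466i-5p belongs to a large rodent miRNA family encoded in repeated copies.

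The miRNAs of muscle followed. miR-133a-3p had 265 single-miRNA peaks in control muscle (16.2%, 14.5 to 18.1) and 328 in the mimic (20%, 18.1 to 22). miR-1a-3p, the name that mature miR-1 has in these lists, had 164 (10.0%, 8.62 to 11.6) and 211 (12.9%, 11.3 to 14.6). miR-206-3p, the miR-1 relative of regenerating and slow muscle, had 96 and 104. For miR-1a-3p the mimic share was the higher, and the 2 intervals overlapped narrowly. Together the fixed group of muscle miRNAs made up 33.1% of single-miRNA peaks in control muscle and 39.9% in the mimic. Their share of all pairs of a peak and a miRNA was 23.3% and 23.9%, and no excess is read from these unlike shares. By peaks, miR-133a-3p had the most reads in 3514 of all 20754 control peaks and 3873 of all 21872 mimic peaks. For miR-1a-3p these counts were 2148 and 2615. In bulk muscle, fewer cells of a type and less RNA per cell cannot be told apart.

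The other named miRNAs had fewer than 80 peaks each. miR-24-3p had 74 in control muscle and 75 in the mimic, miR-22-3p 70 and 72, and miR-26a-5p 77 and 60. miR-214-3p, which fibroblasts express strongly, had 41 and 60, miR-27a-3p 41 and 35, and miR-21a-5p, a miRNA of growing and injured tissue, 39 and 30. Their intervals overlapped between the libraries for all 6. Fibroblast miRNAs as a group held 7.09% of single-miRNA peaks in control muscle and 7.57% in the mimic. Their share of all pairs was 7.51% and 7.31%, and nothing is read from these unlike units. Vascular miRNAs held 2.45% and 2.75%, and immune miRNAs 1.04% and 1.1%. In all, 91 miRNAs had a single-miRNA peak in control muscle and 96 in the mimic, of 560 named in each list, and 63 had one in both. How many of all named miRNAs were in both lists is not given beside this.

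**Figure D1:**
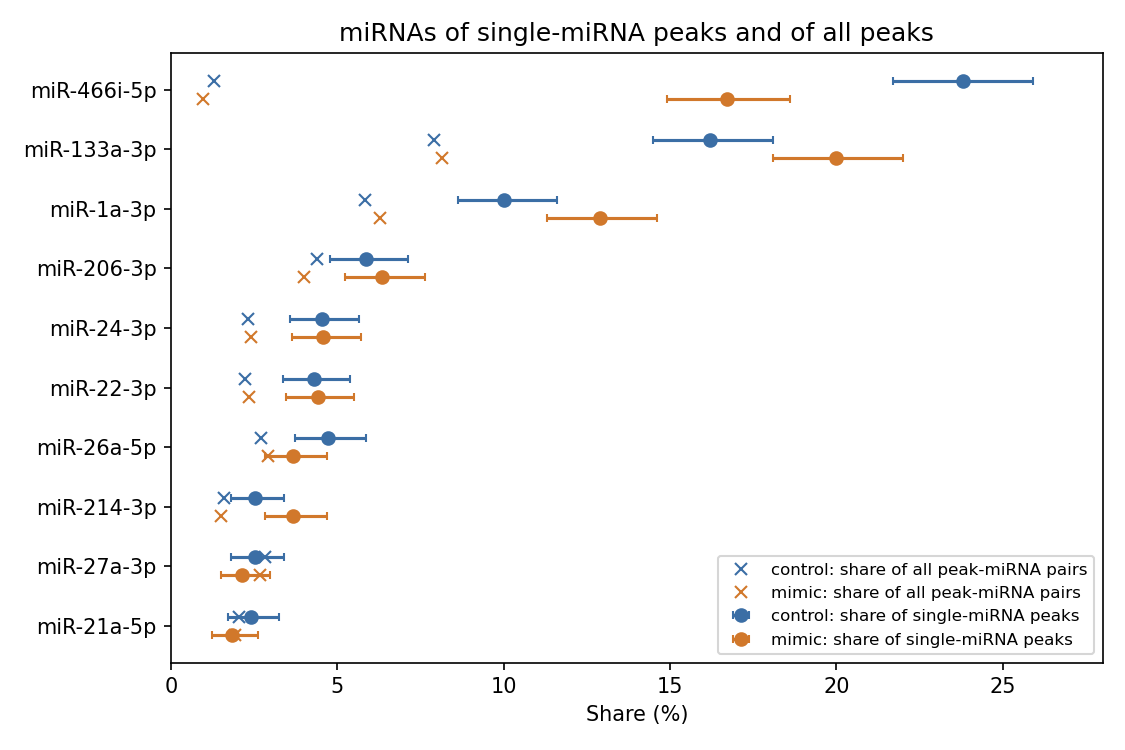
Share (%) of single-miRNA peaks that belonged to each of the 10 miRNAs with the most of them (points, with 95% exact intervals for counting error) and their share of all pairs of a peak and a miRNA (crosses), for the control (blue) and mimic (orange) library. miR-466i-5p stands at 23.8% and 16.7% of single-miRNA peaks but at 1.28% and 0.947% of all pairs. Pairs count every name of a peak, so points and crosses are of unlike units.

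For some miRNAs with close relatives few peaks were single. The let-7 family, whose members share a seed, held 12.3% of all pairs of a peak and a miRNA in each library but 1.41% of single-miRNA peaks in control muscle and 1.71% in the mimic. let-7c-5p had 6 of 2178 peaks single in control muscle and 10 of 2297 in the mimic, and let-7a-5p had 2 of 1832 and 0 of 1949. miR-133b-3p was single at 7 of 3531 control peaks and 2 of 3571 mimic peaks, while its relative miR-133a-3p was single at 3.59% and 3.99% of its peaks. When all names with the same number counted as 1 family, the number of single peaks rose to 2820 in control muscle and 2866 in the mimic. Such a family is not a seed family. It pools both arms, and it keeps miR-206 apart from miR-1 although they have the same seed. Under that count the miR-133 family went from 274 to 628 control peaks and from 333 to 685 mimic peaks, let-7 from 22 to 368 and from 28 to 361, and miR-30 from 15 to 141 and from 22 to 172. miR-1, pooled without miR-206, stayed at 164 and 211. The miR-466 family hardly moved, from 394 to 398 and from 280 to 280, and miR-26 went from 77 to 154 and from 62 to 155. How much the rule of 1 name left out thus differed between families pooled in this way.

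The same mature sequence went by a different name in each list. miR-199b-3p was named in the control alone, with 51 single-miRNA peaks, and miR-199a-3p in the mimic alone, with 37. Their mature sequences are printed to show that they are the same from end to end, with the seed in capitals.
miR-199a-3p: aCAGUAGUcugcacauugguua
miR-199b-3p: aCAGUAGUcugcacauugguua
This difference in naming touches the comparison of names between libraries, and it is set apart from the rest there.

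Fewer of the single-miRNA peaks than of all peaks had a peak at the same place in the other library. A peak of the other list on the same strand shared at least 1 nt with 587 of the 1635 control peaks (35.9%, 33.6 to 38.3), against 53.4% of all control peaks. In the other direction 542 of 1638 mimic peaks were overlapped (33.1%, 30.8 to 35.4), against 50.6% of all mimic peaks. Where there was an overlap it was close. The centres lay a median of 7.5 nt apart in both directions, and a median of 91.5% of the control peak and 89.8% of the mimic peak was covered.

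The reads of a peak went with how often it was found again. In the control the share overlapped was 24.5% at 2 to 2.5 reads, 24.2% at 2.5 to 3, 40.1% at 3 to 4, 61.1% at 4 to 6, 83.8% at 6 to 10 and 94.4% at 10 or more. In the mimic it was 22.8%, 21.9%, 38.7%, 52.1%, 72.4% and 95.2% over the same classes. Peaks of several miRNAs with the same summed reads were overlapped more often at the low end. They reached 31.1% (29.2 to 33.0) and 37.7% in the lowest 2 classes of the control, and 27.8% and 33.2% in those of the mimic, and their intervals did not meet those of the single-miRNA peaks at 2.5 to 3 reads. From 6 reads upward the intervals of both kinds overlapped in the control. In the mimic they met at 6 to 10 reads only narrowly, at 72.4% (60.9 to 82.0) against 81.4%.

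Where the place was found again, the same miRNA was nearly always named. It was named at 545 of 587 control places (92.8%, 90.5 to 94.8) and at 505 of 542 mimic places (93.2%, 90.7 to 95.1). For peaks of several miRNAs, taking the miRNA with the most reads, the share was 80.0% in control muscle and 80.5% in the mimic. Over all peaks of a list, found again or not, the leading miRNA was named at an overlapping peak for 41.8% in control muscle and 39.8% in the mimic, and for single-miRNA peaks this share was 33.3% and 30.8%. At 2 to 2.5 summed reads, places found again kept their miRNA in 92.0% (86.2 to 96.0) of single-miRNA peaks and in 60.8% (57.1 to 64.4) of peaks of several miRNAs in the control, and in 84.8% (77.3 to 90.6) and 59.5% (55.7 to 63.2) in the mimic. At 10 or more reads the intervals overlapped, with 88.2% against 95.4% in control muscle and 100% against 95% in the mimic.

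At equal summed reads, the leading miRNA of a peak of several miRNAs has fewer reads than the miRNA of a single-miRNA peak. Classes were therefore also set by the reads of the leading miRNA. At 2 to 2.5 reads of that miRNA, 55.7% of several-miRNA peaks were overlapped in control muscle and 52.0% in the mimic, both well above the single-miRNA peaks. The leading miRNA was then named again at 67.1% (63.8 to 70.2) of the overlapped places in control muscle and 69.3% (66.1 to 72.3) in the mimic. At 2 to 2.5 reads the ordering was thus the same on either scale, with peaks of 1 miRNA found again less often and keeping their miRNA more often where found. It did not hold throughout. By reads of the leading miRNA, the miRNA was named again at 94.2% of several-miRNA and 92.7% of single-miRNA places at 4 to 6 reads in the control, and at 97.3% and 95.5% at 6 to 10. In the mimic these shares were 91.3% and 97.3% at 4 to 6 reads, in the other order, and 96.5% and 94.5% at 6 to 10. In the control at 6 to 10 reads 93.5% (91.9 to 94.9) of several-miRNA peaks were overlapped. For single-miRNA peaks it was 83.8% (73.8 to 91.1), so those intervals did not meet.

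**Figure D2:**
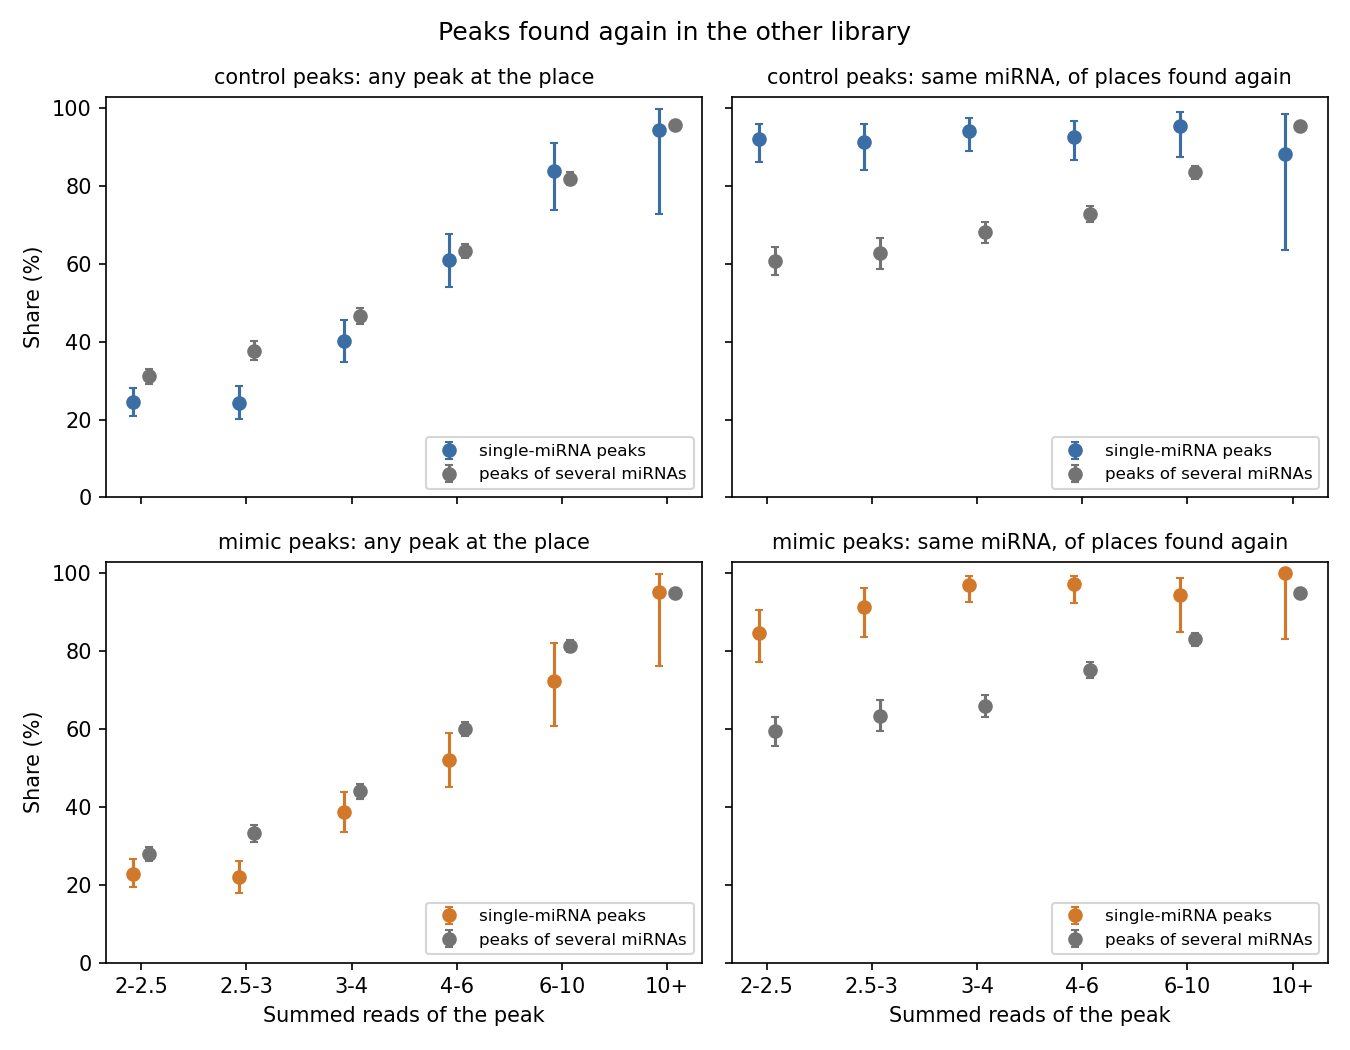
Share (%) of single-miRNA peaks (coloured) and of peaks of several miRNAs (grey) by class of summed reads, with 95% exact intervals for counting error. The left panels show peaks overlapped by any peak of the other library and the right panels the overlapped places at which the miRNA with the most reads was named again. In the control, single-miRNA peaks rise from 24.5% to 94.4% on the left and lie between 88.2% and 95.5% on the right.

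The fates of the peaks in the other library were much the same in both directions. No peak was called at 1048 control and 1096 mimic places. The miRNA was joined by others but had the most reads at 319 and 293, and another miRNA had more reads at 61 and 46. The place was again a single-miRNA peak of the same miRNA at 150 control peaks (9.17%, 7.82 to 10.7) and 150 mimic peaks (9.16%, 7.80 to 10.7), and at 15 and 16 it had only that miRNA with under 2 reads. At 42 and 37 of their places a peak was present that did not name the miRNA. Most often, then, a single-miRNA peak had nothing called opposite it, and next most often it had company.

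Of the 42 and 37 places where the miRNA was not named, 19 and 15 were the pair miR-199b-3p and miR-199a-3p, the same sequence under its other name. A further 6 and 6 held another miRNA with the same seed in the table. That table has no sequence for miR-1a-3p or miR-133a-3p, so their places are not among these. In Baz2a, which encodes a chromatin remodelling subunit, miR-199b-3p had 4.62 reads in the control, and miR-199a-3p led the overlapping mimic peak with 3.53 reads. In Abhd4 the change was from 3.47 reads of miR-199b-3p to 4.59 of miR-199a-3p, with no other name at either place.

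At several of the other places miR-1a-3p and miR-206-3p stood in for each other. In Frmd4a, a gene for a cell polarity scaffold, a single-miRNA peak of miR-206-3p with 8.27 reads at chr2:4305966-4306058 in the control lay over a single-miRNA peak of miR-1a-3p with 2.71 reads at chr2:4305979-4306055 in the mimic. In Ebf1, a transcription factor of B cells and fat cell precursors, miR-1a-3p with 2.58 reads at chr11:44782481-44782534 in the control faced miR-206-3p with 3.75 reads at chr11:44782481-44782543 in the mimic. These were the 2 places where both peaks were single. The order of the names was opposite in them, with miR-206-3p in the control in Frmd4a and in the mimic in Ebf1. In Ext1 and Wdr59 a single peak of miR-1a-3p in the control, of 2.35 and 4.64 reads, lay over a mimic peak led by miR-206-3p with 1.24 and 1.69 reads. In Rptor, a subunit of the growth regulating complex mTORC1, a single miR-1a-3p peak of 2.24 reads in the mimic lay over a control peak led by miR-206-3p with 0.766 reads. These genes were chosen after their values were seen.

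miRNAs differed in how often their peaks were found again. For miR-466i-5p, 86 of 389 control peaks (22.1%, 18.1 to 26.6) and 90 of 273 mimic peaks (33.0%, 27.4 to 38.9) were overlapped, and miR-466i-5p was named at all of these places in both directions. For miR-133a-3p the shares were 42.3% (36.2 to 48.5) and 40.9% (35.5 to 46.4). For miR-1a-3p 46.3% (38.5 to 54.3) of the control peaks were found again in the mimic, and 31.3% (25.1 to 38.0) of the mimic peaks in the control. Those intervals of miR-1a-3p did not meet, and the list with more single peaks of the miRNA, the mimic, had the lower share. miR-466i-5p showed the same order, with the control having more peaks and the lower share. The other 7 ranged from 22% for miR-214-3p to 56.4% for miR-21a-5p in the control, and from 21.7% for miR-26a-5p to 43.1% for miR-22-3p in the mimic, on 30 to 104 peaks each, with wide intervals.

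**Figure D3:**
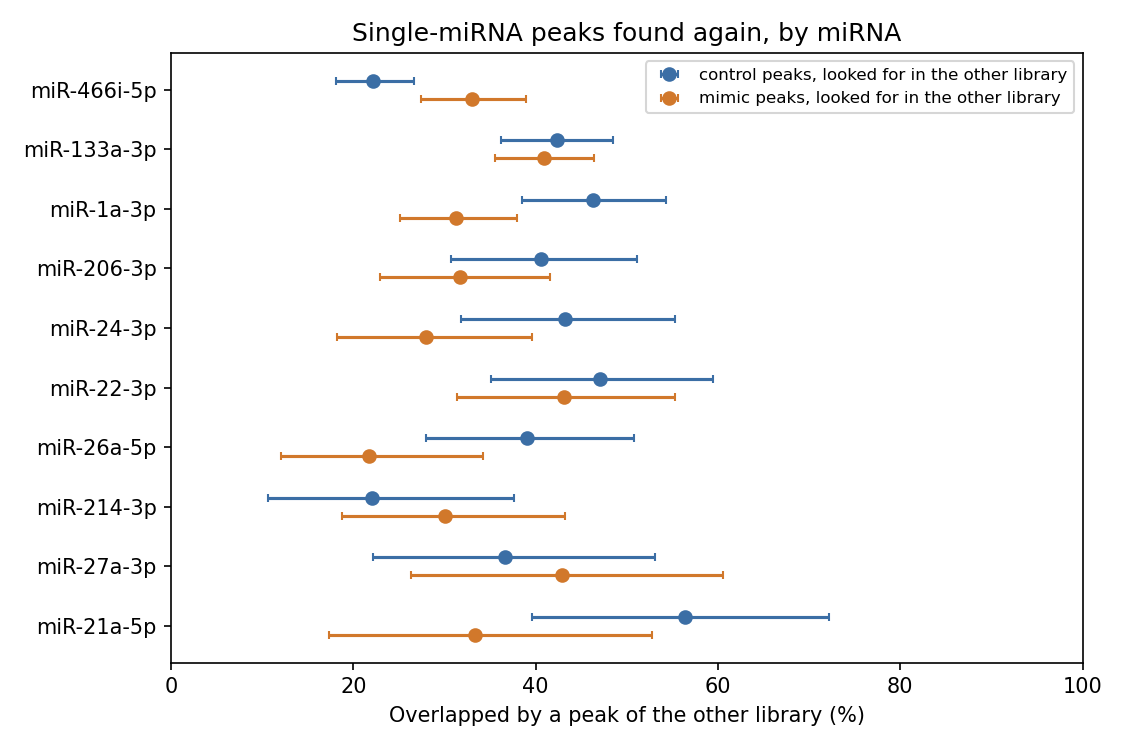
Share (%) of the single-miRNA peaks of each of the 10 miRNAs that a peak of the other library overlapped, for control (blue) and mimic (orange) peaks, with 95% exact intervals for counting error. miR-1a-3p stands at 46.3% and 31.3%, and miR-466i-5p at 22.1% and 33.0%.

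Places that were single-miRNA peaks of the same miRNA in both libraries made 151 pairs, from 150 control and 150 mimic peaks, with 26 miRNAs in 144 genes. miR-466i-5p had 42 of the pairs, miR-133a-3p 25, miR-1a-3p 21, miR-206-3p 10, and miR-22-3p and miR-24-3p 9 each. No pair had identical coordinates. The median was 3.50 reads in each library, and 68 of the 151 were higher in the mimic, with a median log2 ratio of mimic to control of -0.08. Reads were not scaled to depth, and the mimic list held more reads in all. By miRNA the median log2 ratio was -0.18 for miR-466i-5p, with 15 of 42 higher in the mimic, -0.38 for miR-133a-3p, with 10 of 25, and 0.27 for miR-1a-3p, with 13 of 21. The ratios of miR-1a-3p ran from -1.13 to 1.43, so its pairs lay on both sides of equality, and no test between the libraries was possible.

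The 10 pairs of most reads in the lower library fell in 8 genes. In Esyt2, which encodes a tether between the endoplasmic reticulum and the plasma membrane, miR-21a-5p had 19.2 reads in control muscle and 10.4 in the mimic (chr12:116371520-116371632 in the control). In Pde4b, a phosphodiesterase that breaks down cyclic AMP, miR-466i-5p had 8.63 and 15.6 reads (chr4:102572604-102572663). In Il6st, the shared signalling subunit of the receptors of the interleukin family named after interleukin 6, miR-127-3p had 8.95 and 8.58 reads (chr13:112505562-112505670). Esyt2 was higher in the control, Pde4b in the mimic, and Il6st was close to equal.

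Beside Pde4b, miR-466i-5p had such pairs in St3gal5, an enzyme that makes gangliosides, with 6.98 reads in control muscle and 8.62 in the mimic, and in Cmklr1, the chemerin receptor, with 7.75 and 6.85. In Ampd2, an AMP deaminase, miR-5126 had 16 and 6 reads (chr3:108086388-108086421), the widest gap of the 10. In Scaper, miR-709 had adjoining peaks of 9.67 and 8.68 reads in control muscle and of 7.16 and 7.09 in the mimic, which gave 3 of the pairs, 1 of them over a single shared nt. Mature sequences of the miRNAs that lead these places and are not printed above follow, with the seed in capitals.
miR-127-3p: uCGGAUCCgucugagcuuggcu
miR-5126: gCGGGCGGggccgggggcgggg
miR-5126 holds only G and C bases.

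miR-1a-3p had no place among those 10. Its pairs of most reads were Ric1, part of a complex that activates a Rab protein, with 8.93 reads in control muscle and 5.82 in the mimic, and Nxn, the redox protein nucleoredoxin, with 7.32 and 5.76 (chr11:76334703-76334808 in the control). In Tfdp2, a partner of the E2F cell cycle factors, miR-1a-3p had 4.88 and 13.0 reads, and in Itga4, an integrin chain, 4.92 and 5.95. The first 2 were higher in control muscle and the last 2 in the mimic.

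**Figure D4:**
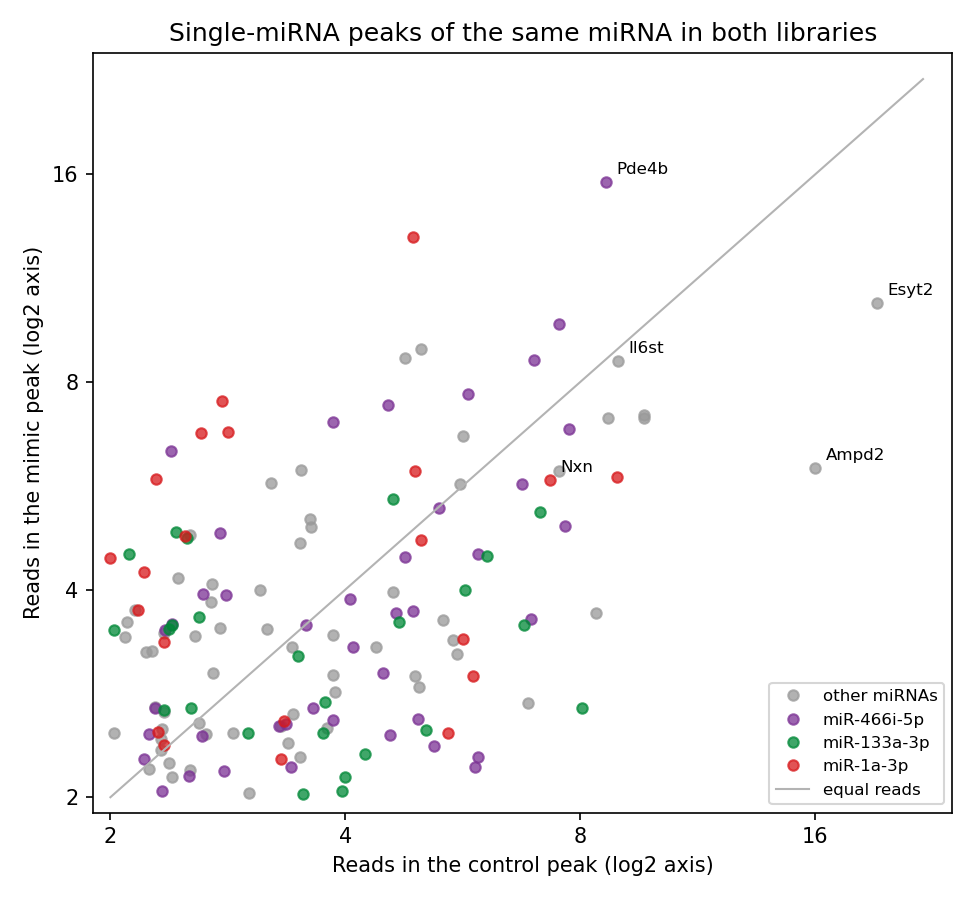
Chimeric reads of the 151 pairs of single-miRNA peaks of the same miRNA, in control muscle (horizontal) and the mimic (vertical), on log2 axes, with the line of equal reads. Points are pairs coloured by miRNA, and 68 of them lie above the line, among them Pde4b (8.63 and 15.6 reads), while Esyt2 (19.2 and 10.4) and Ampd2 (16 and 6) lie below it.

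The single-miRNA peaks with the most reads in 1 library mostly had further names beside the same miRNA in the other. In the control the 6 highest were a pseudogene copy of the glycolytic enzyme triosephosphate isomerase, Tpi-rs10, with 21.9 reads of miR-133a-3p, Esyt2 above, the transcription factor gene Jund with 18.1 of miR-22-3p, Cacfd1 with 16.5 of miR-466i-5p, Rgs2, a brake on G protein signalling, with 16.5 of miR-206-3p, and the ubiquitin ligase gene Pdzrn3 with 16 of miR-206-3p. In the mimic the same miRNA had 22.3 reads in Tpi-rs10 among 3 names, 31.8 in Jund among 2, 12.6 in Rgs2 among 5 and 14.2 in Pdzrn3 among 2. Cacfd1 (chr2:27019643-27019758) was the only 1 of the 6 with no mimic peak. A pseudogene and its parent gene share most of their sequence, so reads listed at Tpi-rs10 may belong to either.

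In the mimic the highest was Rhob, a small GTPase gene, with 36.0 reads of miR-214-3p (chr12:8498853-8498950), against 30.2 in the control among 2 names. Kpna4, a nuclear import receptor, had 31.6 reads of miR-466i-5p, against 35.2 among 4. Coro1c, an actin-binding coronin, had 25.1 of miR-206-3p, against 11 among 2. Aqp1, a water channel of endothelium and red blood cells, had 22.6 of the endothelial miR-126a-3p, against 27.7 among 2. Hspa4, a chaperone gene, had 18.3 of miR-133a-3p, against 13.1 among 4. These 5 were therefore places with the same leading miRNA in both libraries.

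The host genes were long and held few peaks, with a median of 3 peaks in each library against 5 for the hosts of several-miRNA peaks. Medians of hosts here are taken over peaks, so a gene with several such peaks counts several times. Of the control peaks 1604 lay within a gene of the same strand, 10 in a gene of unknown strand and 21 in none. In the mimic 1598 did, 17 were of unknown strand, 19 lay in none and 4 in a gene of the opposite strand only. The hosts were protein-coding for 1557 and 1560 peaks, lncRNA genes for 22 and 21 and pseudogenes for 30 and 30. Over single-miRNA peaks the median span of the host was 64.8 kb in control muscle and 59.9 kb in the mimic, against 38.2 and 39.2 kb for peaks of several miRNAs. At 2 to 2.5 reads the medians were 72.5 kb against 44.5 kb in control muscle and 64.1 against 46.9 in the mimic, so the gap was also there in that class. At 4 to 6 reads the medians were 66.7 against 39.1 kb in control muscle and 60.6 against 38.4 kb in the mimic. At 6 to 10 reads the gap was small in the control, at 37.2 against 35.9 kb, and 48.0 against 37.7 kb in the mimic. At 10 or more reads, on 18 and 21 single-miRNA peaks, they were 41.9 against 29.4 kb and 54.9 against 30.8 kb. The hosts of miR-466i-5p peaks spanned a median of 134 and 102 kb, and those of the other single-miRNA peaks spanned 56.6 and 53.6 kb. Exons, introns and untranslated regions of this build were not used here, so where in the gene a peak lies is not given.

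Single-miRNA peaks were shorter and lay farther from other peaks. The median length was 56.0 nt in control muscle and 58.0 nt in the mimic, against 67.0 and 70.0 nt for peaks of several miRNAs. At 2 to 2.5 reads this difference was almost gone, at 47.0 against 48.0 nt and 48.0 against 49.0 nt. The nearest peak on the same strand was a median of 5711 nt away in control muscle and 5708 nt in the mimic, against 1153 and 1134 nt. They were the only peak of their gene in 20.3% (18.4 to 22.4) and 21.5% (19.6 to 23.6), against 12.6% and 12.3%. Among control peaks of 2 to 2.5 reads that share was 19.5% against 18.1%, and in the mimic 18.8% against 16.7%. At 2.5 to 3 reads it was 22.3% against 16.1% and 26.0% against 13.2%. Distance to the nearest peak was not split by reads.

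Host genes numbered 1323 in control muscle and 1369 in the mimic, which was 19.9% and 19.7% of the genes with any peak. Of these, 392 were hosts in both, 29.6% of the control and 28.6% of the mimic hosts. The like share over all genes with any peak is not given here, so this is not read as a trait of these hosts. Most, 1130 and 1191, held 1 such peak, and 52 and 38 held 3 or more. The 10 genes with the most over both libraries were Dmd, Zbtb20, Ebf1, Gse1, Rbms3, Pdzrn3, Runx1, Maml2, Ext1 and Tead1, and spanned 225 to 2390 kb. Tead1 was 1 of 6 genes with 8 such peaks over both libraries, and was taken for the most reads among them.

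Dmd, the gene of dystrophin, which anchors the muscle fibre membrane, had 6 single-miRNA peaks among 29 peaks in control muscle and 9 among 42 in the mimic. Their reads ran from 2.02 to 4.69 and from 2.08 to 5.18, and 1 in each library was overlapped in the other. In the control, miR-26a-5p with 4.69 reads at chrX:83887066-83887129 was still the leading of 3 miRNAs in the mimic, with 2.64 reads. In the mimic, miR-1a-3p with 5.18 reads at chrX:83425633-83425717 led in the control too, with 6.56. The other 13 peaks had no counterpart.

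Zbtb20, a transcriptional repressor gene, had 7 single-miRNA peaks in control muscle and 5 in the mimic, with 6 and 5 different miRNAs. The highest was miR-143-3p with 14.0 reads in the mimic at chr16:43628689-43628778, where it led a control peak with 3.79 reads. miR-27a-3p had 5.71 reads in the control at chr16:42937852-42937951 and 16.9 in the mimic among 3 names. miR-22-3p was the only name in both libraries at chr16:43543258-43543315, with 2.40 and 2.14 reads.

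In other hosts miR-466i-5p held most of the control peaks but not of the mimic peaks. Gse1 had 7 peaks in the control, 6 of them of miR-466i-5p, and 4 in the mimic, 2 of them of miR-466i-5p. Of its 7 control places 3 were single-miRNA peaks again in the mimic, with 2.7 and 4.07 reads of miR-466f-3p at chr8:120281930-120281979, and 6.92 and 3.63, and 2.39 and 6.35 reads of miR-466i-5p. Tead1, a transcription factor gene of the Hippo pathway, had 7 in the control, 6 of miR-466i-5p, and 1 in the mimic. Its highest, with 14.8 reads at chr7:112854962-112855047, was led by miR-466i-5p in the mimic with 12.8 reads but shared there with another name, which took it out of the count. Pdzrn3 had 5 of 6 control peaks of miR-466i-5p and 1 of 3 in the mimic, Rbms3, an RNA-binding protein gene, 4 of 5 and 2 of 6, and Maml2, a Notch coactivator gene, 4 of 5 and 1 of 4. Peaks of 1 gene share their transcript and are not independent of each other.

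Ebf1 had 9 in the control, 4 of miR-466i-5p and 3 of miR-1a-3p, and 3 in the mimic. Runx1, a transcription factor gene that muscle raises after denervation, had 3 and 6. Ext1, an enzyme of heparan sulphate synthesis, had 6 and 3, and 2 of its places were single-miRNA peaks of the same miRNA in both libraries. Counts by gene therefore moved in either direction between the libraries.

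The contractile genes, in contrast, held almost no single-miRNA peaks. All 35 genes of the sarcomere list had peaks, 791 in control muscle and 807 in the mimic, and 3 and 3 of them were single-miRNA peaks, 0.379% and 0.372% against 7.88% and 7.49% of all peaks. Ttn, the giant spring of the sarcomere, had 0 of 237 in control muscle and 0 of 239 in the mimic, which allows a share of up to 1.27% and 1.26%. Neb, the ruler of the thin filament, had 0 of 73 and 0 of 76, which allows up to 4.11% and 3.95%. The 10 marker genes of muscle fibres, all of them with peaks as the tissue label says, had 0 of 365 and 0 of 370, up to 0.822% and 0.811%. The mitochondrial chromosome had 0 of 38 and 0 of 37, up to 7.89% and 8.11%, a limit that includes the share over all peaks. Few of these peaks had 2 to under 6 reads, where most single-miRNA peaks lie, with 12 and 9 in Ttn, 8 and 4 in Neb and 0 and 0 on the mitochondrial chromosome. The limits here come from 3 counts of the total and cover counting error only.

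Reads moved with this result. The median peak of the sarcomere list had 20.4 reads in control muscle and 23.4 in the mimic, against 3.35 and 3.29 for all peaks, and mitochondrial peaks had 132 and 120. Among sarcomere peaks of 2 to under 6 reads, 3 of 130 and 3 of 131 were single, 2.31% and 2.29%, against 14.2% and 13.8% of all peaks of such reads. The share was thus lower at like reads as well, on few peaks. Among the sarcomere places were those in Tpm3 with 4.92 reads of miR-26a-5p and Xirp2 with 2.81 of miR-133a-3p in the control, and in Xirp1 with 4.25 of miR-133a-3p in the mimic. Of these, Xirp1 alone was overlapped in the other library, with 9.65 reads of miR-133a-3p among 3 names.

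Calcium handling genes had 4 of 170 peaks single in control muscle (2.35%) and 7 of 167 in the mimic (4.19%), against 7.88% and 7.49% of all peaks, and the mimic interval of 1.70 to 8.45 includes the latter. At 2 to under 6 reads the shares were 6.78% and 10.2%, against 14.2% and 13.8% of all such peaks. Jph2, which holds the membranes of the calcium release unit together, had a place with miR-466i-5p alone in both libraries, at 2.62 and 2.45 reads (chr2:163381473-163381533 in the control). Stac3, a part of excitation-contraction coupling, had one with miR-133a-3p alone at 3.77 and 2.75 reads (chr10:127502744-127502794). These were the only 2 hosts of the list shared by the libraries. Trdn, a triadin gene of the same unit, had 6.38 reads of miR-22-3p in the mimic and no control peak there.

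Extracellular matrix genes had 3 of 271 in control muscle (1.11%) and 6 of 267 in the mimic (2.25%), and 4.62% and 8.96% at 2 to under 6 reads. Over all peaks the share was 7.88% in control muscle and 7.49% in the mimic, and at 2 to under 6 reads 14.2% and 13.8%. Fbn1, the gene of fibrillin, was the only shared host, with 4.61 reads of miR-466i-5p in control muscle and 2.41 of miR-133a-3p in the mimic at different places, neither found in the other library. Tnc, a matrix gene of injured tissue, had 5.05 reads of miR-24-3p in the control, and miR-24-3p led the mimic peak with 10.2. Growth and regeneration genes had 3 of 86 (3.49%, 0.725 to 9.86) and 4 of 104 (3.85%, 1.06 to 9.56), or 6.67% and 9.52% at 2 to under 6 reads. Both intervals include the share over all peaks. Nxn was the shared host. Genes of the miRNA pathway had 3 of 64 (4.69%, 0.977 to 13.1) and 3 of 56 (5.36%, 1.12 to 14.9), or 6.9% and 11.5% at 2 to under 6 reads. These intervals also include the share over all peaks. Among the hosts was Ago2 itself, with 2.28 reads of miR-214-3p in control muscle. Ago3 was a host in both, at different places, with 2.20 reads of miR-133a-3p and 2.51 of miR-206-3p. Tnrc6c, a partner of Ago2 in silencing, had 7.69 reads of miR-133a-3p in control muscle and 0.542 in the mimic.

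Glycolysis and energy genes had 1 of 137 and 0 of 124, translation genes 0 of 74 and 1 of 68, and chaperones 1 of 68 and 0 of 59. Over all peaks the share was 7.88% and 7.49%. By 3 counts of the total, the mimic glycolysis genes could reach 2.42%, the control translation genes 4.05% and the mimic chaperones 5.08%. At 2 to under 6 reads, glycolysis genes had 1 of 20 and 0 of 15, and translation genes 0 of 29 and 1 of 21. Chaperones had 0 of 20 and 0 of 15, against 14.2% and 13.8% of all such peaks. A low share was thus not particular to the contractile genes. Among markers of other cells, fibroblast markers had 2 of 78 and 0 of 73 single, both in Pdgfra, with miR-21a-5p at 4.11 and miR-22-3p at 2.56 reads. Endothelial and macrophage markers had few peaks in all. Endothelial markers had 1 of 5 and 2 of 13, and macrophage markers 2 of 11 and 2 of 14, all of the latter in Csf1r. In Cdh5, the endothelial cadherin gene, the single miRNA was the endothelial miR-126a-3p, at 2.58 reads in the control. The satellite cell markers had no peak in either library, and red blood cell markers had 2 and 3 peaks with none single.

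**Figure D5:**
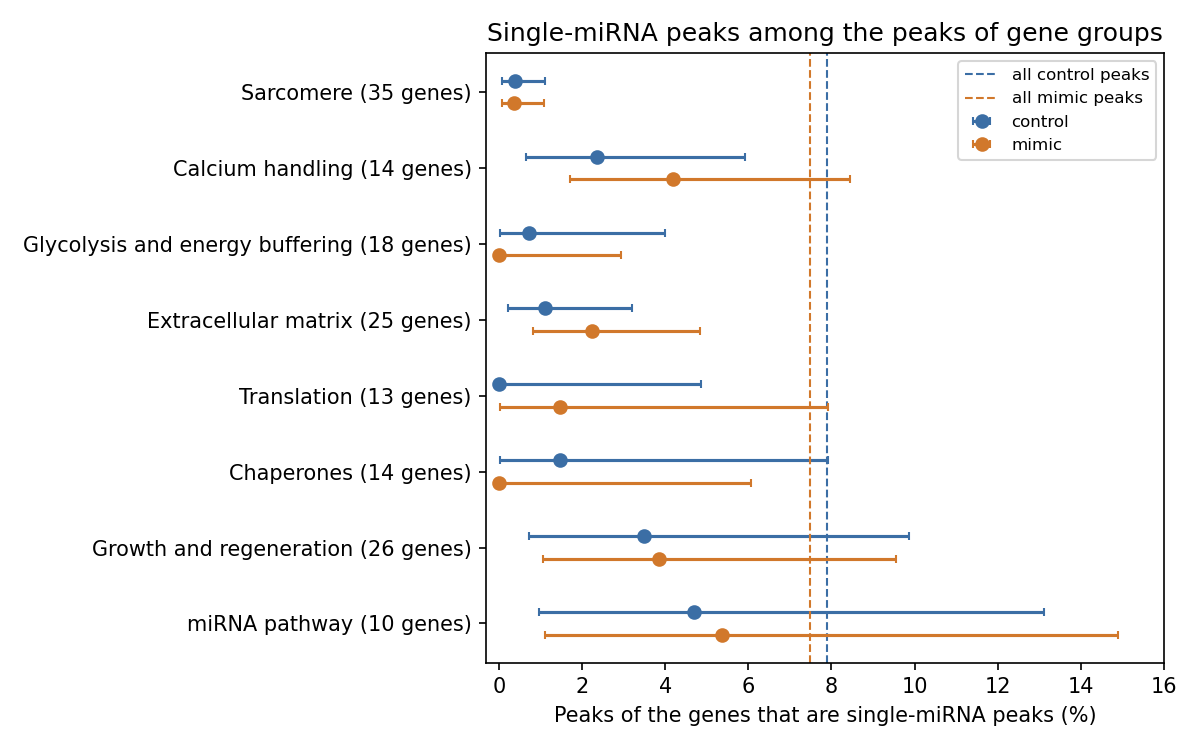
Single-miRNA peaks as a share (%) of all peaks of each gene group in control muscle (blue) and mimic (orange), with 95% exact intervals for counting error, and dashed lines at the share over all peaks. The sarcomere group lies at 0.379% and 0.372%, against 7.88% and 7.49% of all peaks, and the interval of the miRNA pathway group includes both lines.

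A few single-miRNA peaks lay on miRNA hairpins, the folded precursors from which a mature miRNA is cut. There were 5, of 85 such peaks in both libraries. Over all peaks 7.88% in control muscle and 7.49% in the mimic were single, so the number is not read as a trait of hairpins. A miRNA of that same hairpin was carried by 3 of the 5, and 37 of all 85 named one among their miRNAs. So few peaks do not set the 5 apart from the 85. The sequences under these 3 peaks (RefSeq, GRCm38, in the direction of the hairpin) and the miRNA ligated there are printed together, with a longest run of Watson-Crick pairs in capitals in both.
Mir126a peak, chr2:26591365-26591384, plus strand: CAUUAUUACUuuugguacgc
miR-126a-3p: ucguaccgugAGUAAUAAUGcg
Mir501 peak, chrX:7241298-7241327, minus strand: AUCCUUugucccugggugaaaaugcuauuu
miR-501-3p: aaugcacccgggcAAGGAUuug
Mir668 peak, chr12:109734734-109734758, plus strand: uaAGUGugccucgggugagcaugca
miR-668-3p: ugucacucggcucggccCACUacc
The runs were 10, 6 and 4 bases. In the mimic peak on Mir26b, whose miRNA was miR-125b-5p and not of that hairpin, the run was 5 bases, longer than in Mir668. Such runs do not show that the miRNA targets the place. The control peak in Mir126a had 3.65 reads, and miR-126a-3p led the mimic peak there. The mimic peak in Mir501 had 2.61 reads of the 3p miRNA over the 5p arm, covering 21 of its 22 bases. The control peak in Mir668 had 2.82 reads of the 3p miRNA and covered 23 of the 24 bases of its 5p arm. Neither of the latter had a counterpart. These 3 places lie within annotated hairpins. Whether the RNA ligated there was the precursor, a mature arm or a longer host transcript was not tested.

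Sequence under the peaks was at hand only near gene starts. In 12 single-miRNA peaks some bases lay in the stretch from 250 bases before to 50 after the start of a gene in RefSeq (GRCm38), and 10 of these had a miRNA whose seed match could be looked for, the seed of miR-1a-3p being read from miR-206-3p. A 7-base match to the seed lay in 3 of the 10. Of those with at least 20 nt in the stretch it was 3 of 7, and in peaks of several miRNAs, for their leading miRNA, 11 of 61 (18.0%, 9.36 to 30). The interval for 3 of 7 runs from 9.90% to 81.6%. The 3 sites are printed with the match in capitals.
Surf4, miR-24-3p, chr2:26933325-26933354, minus strand: aggacctgccagCTGAGCCttccgccgccg
Icmt, miR-1a-3p, chr4:152297420-152297448, plus strand: tcagcctcgctACATTCCtcctgggcgcc
Abr, miR-15a-5p, chr11:76494458-76494476, minus strand: cTGCTGCTgctgctgctgc
CTGAGCC occurs on the same strand in 5.13% of 32817 such stretches, ACATTCC in 1.92% and TGCTGCT in 4.11%. On either strand the shares are 9.75%, 3.85% and 8.43%. The Abr site is a repeat of the same 3 bases, in which TGCTGCT matches at several overlapping positions. A match is a description of letters and does not show pairing.

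The Surf4 peak, which lies in the stretch around the start of its neighbour Gm36591 and in a gene for a cargo receptor of the secretory pathway, had 6.61 reads of miR-24-3p in the control. In the mimic miR-24-3p still led there with 1.9 reads among 4 names. The Icmt peak, in the gene of a methyltransferase that finishes prenylated proteins, had 3.87 reads of miR-1a-3p in the mimic and 1.63 reads of it in the control among 2 names. The Abr peak had 2.64 reads in control muscle and no mimic peak. A peak in Sec61b with no match in its 14 bases within the stretch was also found again, with miR-24-3p leading at 0.679 reads.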

How the data were processed

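Chimeric eCLIP with an Ago2 antibody was made from the plantaris of the MOV control and MOV mimic groups, 1 library each, grouped by the labels. The deposited values are estimated counts (expected counts), fractional numbers of chimeric reads of 1 miRNA in 1 peak, which the authors did not scale to depth. The processing notes of the submitters name UMI-tools 1.1.1, cutadapt 3.2, STAR 2.7.7a, Bowtie 1.2.3 and HOMER 4.11, and the methods name CLIPper for peaks. Per the methods, repeats were filtered, PCR duplicates removed, and cDNA amplified with a primer to miR-1, although these lists name many miRNAs, so shares of miRNAs describe the lists and not abundance in muscle. Whether the libraries were called apart, and how fractions and names of similar miRNAs were set, is not given in the sources used here. Depth was taken as the summed reads of each list, 232408 in control muscle and 259207 in the mimic.

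The methods name mm9, and the processing notes mm10. Coordinates were treated as GRCm38 (mm10), counted from 1, since 99.1% of control and 99.2% of mimic peaks overlapped a RefSeq gene span of GRCm38.p6. A peak was given the gene of largest overlap on its strand. The strand came from RefSeq tables of GRCm38 for 28097 genes, by name from an mm9 annotation for 9312, and was unknown for 12588 of 49997. No genome of this build was used here, so seed matches were looked for only in RefSeq stretches around gene starts. Of 659 miRNA names, 543 had a mature sequence in the RefSeq table.

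Lines with the same chromosome, start, end and strand were joined into a peak. Peaks were found again when a peak of the other list shared at least 1 nt on the same strand. Since each group had only 1 library, nothing was tested and no p-value is given. Shares have exact Clopper-Pearson 95% intervals that cover counting error only. Named were the 10 miRNAs and the 10 host genes with the most single-miRNA peaks, the 6 peaks of most reads in each library, the 10 pairs of most reads, and the genes of the lists with such a peak in both libraries. A few genes that this rule picks are not reported here. Others named for context were chosen after their values were seen. The peaks and lists were chosen with earlier results of these data known. Grouping, overlap and gene assignment were tested on simulated data. Python 3.11.15, pandas 2.3.3, numpy 2.4.6, scipy 1.17.1 and matplotlib 3.10.9 were used. Alternatives were other minimum reads, other rules of overlap, pooled names and left-out peaks.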

Additional observations from a re-analysis of the deposited data

How the results depend on the processing

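Of 56 values recomputed under the alternatives, 33 stayed within the interval of a share or a factor of 1.5 of a count, 23 moved and 0 reversed. Some of the 33 could not move. No single-miRNA peak was mitochondrial, so leaving out mitochondrial peaks changed nothing. Neither list named both miR-199a-3p and miR-199b-3p, so pooling them could not change the number of peaks or of peaks found again. With a minimum of 3 reads the single-miRNA peaks fell to 645 in control muscle and 669 in the mimic, and 53.6% and 48.6% were found again, with the same miRNA at 96.9% of mimic places. With names pooled by number into families there were 2820 and 2866 peaks. Of these, 44.6% and 41.5% were found again, and the same family was named at 98.2% and 98.3%. With names sharing a seed counted as 1 there were 2409 and 2417 peaks, within the factor of 1.5. Of these, 41.3% and 38.5% were found again, with the same seed at 97.5% and 97.6%. The sequence table lacked miR-466i-5p, miR-133a-3p and miR-1a-3p, so these were not pooled by seed, nor was miR-1a-3p with miR-206-3p. Counting miR-199a-3p and miR-199b-3p as 1 name gave the same miRNA at 96.1% and 95.9%. A reciprocal overlap of at least 50% gave 30.5% and 28.7% found again. Allowing a gap of up to 50 nt gave 38.7% in the control, and the same miRNA at 90.7% of mimic places. Without miR-466i-5p 40.2% of control peaks were found again, and without peaks within 1000 nt of another peak 29.0% of mimic peaks. The pooled miR-199 names, the families, the removal of miR-466i-5p and the removal of near peaks were chosen after seeing the data.

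No paired analysis was possible because there was only 1 library in each group, and there was no replicate to leave out. The planned search for seed matches in all peaks, with its alternatives of a shorter match and of wider peaks, was not run, since no genome of this build was used here. Most single-miRNA peaks rest on under 4 reads, which limits what the other library can show, and a place with no peak there is not shown to be unused. Of peaks with 6 to 10 reads, 67 of 80 in the control list and 55 of 76 in the mimic list were found again.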
